A study of Mus musculus with 9 samples.

Results

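Small leucine-rich proteoglycans are secreted matrix proteins with a core of leucine-rich repeats, most of which carry chondroitin, dermatan or keratan sulfate chains. They bind collagen fibrils and set their spacing and width, and several of them also bind TGF-beta or cell surface receptors. In the brain they are known mainly from the meninges and from the fibroblasts and mural cells around vessels, and they are sparse in the parenchyma. The genes described here are Bgn and Dcn (biglycan and decorin, the class I members that carry chondroitin or dermatan sulfate), Aspn (asporin, a class I member with a stretch of aspartates in place of the chain), Lum, Fmod and Prelp (lumican, fibromodulin and prolargin, of class II) and Ogn (osteoglycin, of class III). They were taken by symbol, and all 7 were found among the 20778 symbols of the deposited matrix.

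RNA was sequenced in bulk from 9 libraries, 3 in each of 3 groups. The 3D bioink and the 2D culture held the same mixture, a penta-culture of mCherry-labelled GL261 cells (a mouse glioblastoma line) with primary astrocytes, microglia, pericytes and endothelial cells from the brains of male C57BL/6 mice 6 to 10 weeks old, in a fibrin gel for the bioink and on a petri dish for the 2D culture. GL261 was seeded at 1000000 cells per ml, and the astrocytes were the cells left after the bead separations, so other brain cells may have been among them. The cell types of both cultures were seeded in unequal numbers, at ratios of 1, 1, 2, 0.1 and 0.1. Which ratio belongs to which type is not given here. The tumours had grown for 14 days in the striatum of immunocompetent male C57BL/6 mice injected with 50000 of the same GL261 cells at 7 weeks of age, in 5 mice per the labels' protocols. Before RNA isolation the bioink, and per the labels no other group, was digested for 3 h in 600 U per ml of collagenase II. The labels do not say whether the 3 libraries of a group came from separate mice or cultures, so the p-values speak only for the variation among the 9 libraries, and part of it may be technical.

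The values are counts normalized between libraries by the authors and rounded to whole numbers. They summed to 13548461 to 13683978 per library in the bioink, 15572800 to 15711632 in 2D culture and 16320090 to 16388074 in the tumours. The depth in reads is unknown, so a gene without signal is said to be listed at 0. Bioink replicate 1 stood apart, with the lowest limma array weight (0.236, against 0.688 to 4.96 in the other 8 libraries). It listed 17 genes at 0 that stood at 100 or more in both other bioink libraries, against 0 to 14 such genes in each other library. Markers of the labelled cell types were uneven. The 10 microglia markers summed to 1206 to 1218 per library in the bioink and 702 to 777 in 2D culture, against 18898 to 19747 in the tumours. The 12 endothelial markers summed to 5788 to 8077 in the bioink, 4842 to 5192 in 2D culture and 6101 to 6419 in the tumours, and the 11 astrocyte markers summed to 9116 to 9397 in the bioink, 7426 to 7832 in 2D culture and 5942 to 6384 in the tumours. Single markers of both lists went either way. Against tumours 2 of 10 endothelial markers tested were higher and 3 lower in the bioink, and 1 higher and 6 lower in 2D culture. The background, the share of all genes tested, was 27.1% higher and 37.3% lower in the bioink, and 27.3% and 27% in 2D culture. Cldn5 stood at 15 to 20 in the bioink, 2 to 8 in 2D culture and 93 to 147 in the tumours, whereas Cdh5 stood at 525 to 654 in the bioink, 574 to 613 in 2D culture and 124 to 172 in the tumours. Of 10 astrocyte markers tested 5 were higher and 2 lower in the bioink, and 5 higher and 3 lower in 2D culture (same background). Aqp4 stood at 15 or less in every library. Sox9 stood at 413 to 580 in the bioink, 121 to 166 in 2D culture and 23 to 38 in the tumours. Gfap and Slc1a3 were highest in the tumours. Gfap stood at 362 to 395 in the bioink, 149 to 187 in 2D culture and 553 to 625 in the tumours. Slc1a3 stood at 207 to 248 in the bioink, 63 to 85 in 2D culture and 483 to 605 in the tumours.

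Bgn was the member with the most signal in all 9 libraries, and its region upstream of the start is shown here beside those of the 4 members that stayed low in every group. Each run is the 250 bases before the RefSeq start in GRCm38.p6 (the assembly also called mm10), written 5′ to 3′ on the gene's strand. Capitals mark matches, on either strand, to the GC box GGGCGG, the TATA box TATAAA, the CCAAT box CCAAT or the AP-1 motif TGANTCA. The windows lie at chrX:73483351-73483600 for Bgn, chr1:133921402-133921651 for Prelp, chr1:134037004-134037253 for Fmod, chr13:49607765-49608014 for Ogn and chr13:49544193-49544442 for Aspn, on the minus strand for Prelp and on the plus strand for the others.
Bgn: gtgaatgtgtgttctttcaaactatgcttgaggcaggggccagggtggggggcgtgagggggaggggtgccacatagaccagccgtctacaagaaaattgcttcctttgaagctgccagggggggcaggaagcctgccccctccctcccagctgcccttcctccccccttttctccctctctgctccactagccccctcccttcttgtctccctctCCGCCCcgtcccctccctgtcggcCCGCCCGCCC
Prelp: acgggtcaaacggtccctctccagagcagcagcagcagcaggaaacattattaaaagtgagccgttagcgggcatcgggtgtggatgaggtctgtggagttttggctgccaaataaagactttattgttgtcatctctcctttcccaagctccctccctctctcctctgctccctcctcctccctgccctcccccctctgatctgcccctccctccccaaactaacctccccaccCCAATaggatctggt
Fmod: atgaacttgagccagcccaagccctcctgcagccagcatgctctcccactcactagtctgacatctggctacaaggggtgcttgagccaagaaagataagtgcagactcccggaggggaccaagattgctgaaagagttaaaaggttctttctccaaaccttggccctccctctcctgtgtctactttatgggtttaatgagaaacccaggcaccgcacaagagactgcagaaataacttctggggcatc
Ogn: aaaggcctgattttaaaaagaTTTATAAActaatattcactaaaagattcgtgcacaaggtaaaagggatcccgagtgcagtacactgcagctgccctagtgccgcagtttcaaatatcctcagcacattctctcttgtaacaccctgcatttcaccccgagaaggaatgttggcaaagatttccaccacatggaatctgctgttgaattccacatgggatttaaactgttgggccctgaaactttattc
Aspn: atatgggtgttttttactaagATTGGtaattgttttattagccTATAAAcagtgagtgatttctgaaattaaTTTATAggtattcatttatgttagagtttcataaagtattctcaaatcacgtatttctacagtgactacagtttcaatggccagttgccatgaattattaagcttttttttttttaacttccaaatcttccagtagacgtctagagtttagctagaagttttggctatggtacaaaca
The Bgn window was 64.4% G and C and held 3 matches to the GC box, the first bases of which lay at -34, -10 and -6 relative to the start, so that the last of them overlap. It held no match to the TATA box, the CCAAT box or the AP-1 motif. The Prelp window was 55.6% G and C with 1 match, to the CCAAT box at -15, and the Fmod window was 51.2% G and C with no match to the 4 motifs. The Ogn window was 42.0% G and C with 2 overlapping matches to the TATA box at -229 and -227. The Aspn window was 30.0% G and C, with matches to the TATA box at -207 and -178 and to the CCAAT box at -229. Among all 32817 such windows of RefSeq genes, 32.7% held the GC box, 12.4% the TATA box, 33.8% the CCAAT box and 6.8% the AP-1 motif, and the median G and C content was 52.4%. These letters describe the windows and are not evidence of binding. RefSeq windows were found for 5 of the 7 members and not for Dcn and Lum.

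Bgn differed between all 3 groups, Dcn and Lum had signal mainly in the bioink, and the other 4 genes were low throughout. Bgn encodes biglycan, which binds type I collagen and TGF-beta and, once released from the matrix, signals through Toll-like receptors. Its gene lies on chromosome X at 73483602 to 73495933 in GRCm38 (GENCODE M21). Bgn stood at 2681, 2548 and 2712 normalized counts in the bioink, 1027, 1032 and 971 in 2D culture and 64, 58 and 57 in the tumours. The order bioink, 2D culture, tumours held without overlap, and the replicates lay close together. The means were 2647 ± 87.1 in the bioink, 1010 ± 33.9 in 2D culture and 59.7 ± 3.79 in the tumours (SD, n = 3 each). On the log2(value + 1) scale Bgn was higher by 5.45 in the bioink than in the tumours (43.7-fold, SE 0.08, limma adjusted p = 9.87e-11). In 2D culture it was higher than in the tumours by 4.06 (16.7-fold, SE 0.08, limma adjusted p = 2.93e-10). Between the cultures it was higher in the bioink by 1.39 (2.62-fold, SE 0.08, limma adjusted p = 4.61e-07). In a mixture of cells, fewer cells of a type and less RNA per cell cannot be told apart, and this holds for every difference given here.

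**Figure D1:**
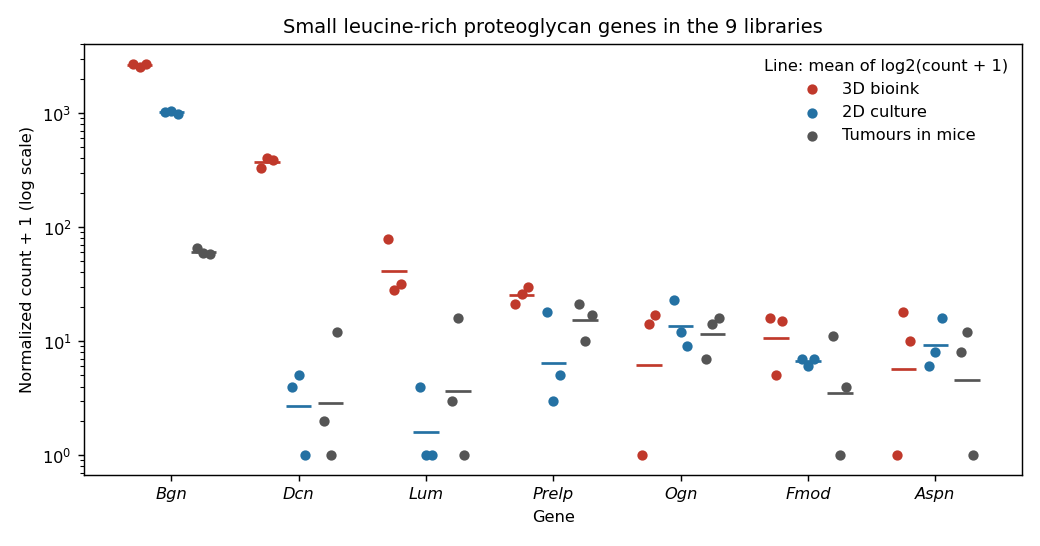
Normalized count plus 1 on a log axis for each of the 7 genes in the 3 bioink, 3 2D culture and 3 tumour libraries (points), with the mean of log2(count + 1) as a line. Bgn separates all 3 groups, Dcn and Lum separate the bioink from both others, and the remaining genes have counts below 30 in every library.

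Dcn encodes decorin, which coats collagen fibrils, binds TGF-beta and is a ligand of the EGF and Met receptors. The gene lies on chromosome 10 at 97479609 to 97518143. Dcn stood at 329, 405 and 389 in the bioink, 3, 4 and 0 in 2D culture and 1, 0 and 11 in the tumours. The bioink libraries lay far above the rest, while 2D culture and tumours overlapped, both at 11 or less. Dcn was higher in the bioink than in the tumours by 7.02 on the log2(value + 1) scale (SE 0.92, limma adjusted p = 9.36e-05), the rank 13 of all 13773 genes tested from the highest rise. It was higher than in 2D culture by 7.11 (SE 0.92, limma adjusted p = 0.000103), rank 10 from the top. Dcn passed the minimum mean of 10 used for testing only through the bioink, so these calls are given as a description of the values. The size depends on the values near 0. With a pseudocount of 10 the differences were 4.86 against tumours and 4.97 against 2D culture, and the first was 6.25 without tumour replicate 2 and 8.05 without tumour replicate 3, the second 6.39 without 2D replicate 3. Between 2D culture and tumours no difference was detected (log2 -0.09, 95% interval -2.15 to 1.98, limma adjusted p = 0.946).

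Lum, which encodes lumican, a keratan sulfate proteoglycan that regulates fibril assembly, lies 47.0 kb downstream of Dcn on chromosome 10 (97565128 to 97572703) with no protein-coding gene between them. Lum stood at 77, 27 and 31 in the bioink, 3, 0 and 0 in 2D culture and 2, 15 and 0 in the tumours. The bioink libraries were again the highest, and bioink replicate 1 was above the other 2. Lum was higher in the bioink than in the tumours by 3.50 (log2, SE 1.05, limma adjusted p = 0.0145) and higher than in 2D culture by 4.70 (log2, SE 1.05, limma adjusted p = 0.00337). Lum also passed the minimum mean only through the bioink, so its calls too are descriptive. The first value moved to 4.57 without tumour replicate 2, 2.57 without tumour replicate 3 and 1.82 with a pseudocount of 10. The second moved to 5.36 without 2D replicate 1, 5.41 with a pseudocount of 0.5 and 2.22 with a pseudocount of 10. Without bioink replicate 1 the gene fell under the minimum mean and was not tested. Between 2D culture and tumours no difference was detected (log2 -1.19, 95% interval -3.55 to 1.16, limma adjusted p = 0.368).

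Prelp encodes prolargin, a class II protein with a basic stretch that binds heparin and heparan sulfate. It stood at 20, 25 and 29 in the bioink, 17, 2 and 4 in 2D culture and 20, 9 and 16 in the tumours. The bioink lay above 2D culture without overlap, by 3 counts at the closest, and touched the tumours at 20. It was higher in the bioink than in 2D culture by 1.97 (log2, SE 0.67, limma adjusted p = 0.0279). This call was lost after quantile normalization (log2 1.00, adjusted p = 0.209) and without bioink replicate 2 or 3 (adjusted p = 0.0643 and 0.0779) or 2D replicate 2 or 3 (adjusted p = 0.100 and 0.0820), and the value was 1.06 with a pseudocount of 10 and 2.71 without 2D replicate 1. Prelp differed from the tumours by 0.73 in the bioink (95% interval -0.77 to 2.23, limma adjusted p = 0.358) and by -1.24 in 2D culture (95% interval -2.74 to 0.26, limma adjusted p = 0.146), neither past the threshold. Without 2D replicate 1 the second value was -1.98 and passed (limma adjusted p = 0.0192). The antisense gene Gm15851 shares 350 exonic bases with Prelp, and whether reads were assigned by strand is not given in the sources used here.

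Ogn, Fmod and Aspn were close to the bottom of the scale. Ogn, whose product osteoglycin takes part in fibril formation, stood at 0, 13 and 16 in the bioink, 22, 11 and 8 in 2D culture and 6, 13 and 15 in the tumours, and all groups overlapped. Its differences were -0.91 between bioink and tumours, 0.22 between 2D culture and tumours and -1.13 between bioink and 2D culture (log2, limma adjusted p = 0.456, 0.874 and 0.367). Their 95% intervals ran from -3.19 to 1.38, -2.06 to 2.51 and -3.41 to 1.16, so the precision allows differences of either sign. Fmod, for fibromodulin, which binds type I collagen and slows fibril growth, stood at 15, 4 and 14 in the bioink, 6, 5 and 6 in 2D culture and 10, 0 and 3 in the tumours. Aspn, for asporin, a binder of TGF-beta and collagen, stood at 0, 17 and 9 in the bioink, 5, 7 and 15 in 2D culture and 7, 11 and 0 in the tumours. Fmod and Aspn had means over the 9 libraries of 7.00 and 7.89 and were not tested. The zeros of Ogn and Aspn in the bioink were both in replicate 1.

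**Figure D2:**
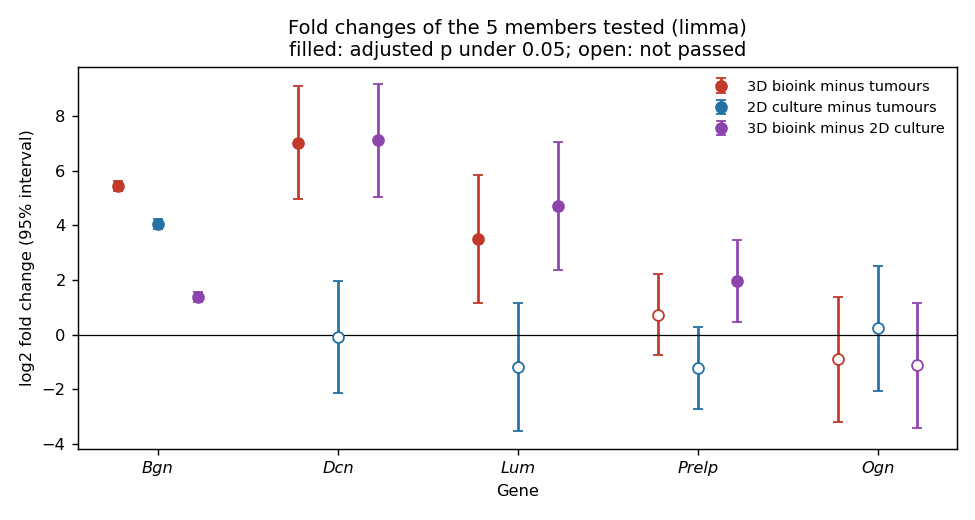
log2 fold change with its 95% interval for the 5 members tested, in the 3 comparisons. Filled points passed a limma adjusted p of 0.05: Bgn in all 3, Dcn and Lum in both comparisons with the bioink, and Prelp only in bioink against 2D culture.

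Of the 5 members tested, 3 were called higher in the bioink than in the tumours, where 27.1% of all genes tested were called higher and 64.4% were called in either direction. In 2D culture against tumours 1 member, Bgn, was called higher (background 27.3% higher, 54.3% in either direction). In the bioink against 2D culture 4 were called higher (background 27%, and 59.2% in either direction). No member was called lower in any of them, whereas 37.3% of all genes were lower in the bioink and 27% in 2D culture than in the tumours, and 32.2% were lower in the bioink than in 2D culture. Groups did not overlap, with the bioink above the tumours, for 3 of the 7 members (Bgn, Dcn and Lum; 28.7% of all genes tested were higher without overlap and 38.9% lower). In 2D culture against tumours this held for Bgn alone (32.2% of all genes higher, 31.7% lower), and in the bioink against 2D culture for Bgn, Dcn, Lum and Prelp (31.5% of all genes higher, 35.6% lower). Since Dcn and Lum passed the filter through the bioink alone and so had to differ, the counts are a description. How all genes divided depended on scaling. With libraries scaled to equal sums, 4887 genes were higher and 3818 lower in the bioink against tumours, in place of 3737 and 5132. In the bioink against 2D culture 4715 were higher and 3433 lower with equal sums and 4528 and 3585 with equal upper quartiles, in place of 3713 and 4435. The 3 comparisons share libraries and are not independent of each other.

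The sum over the 7 genes was 3122, 3039 and 3200 in the bioink, 1083, 1061 and 1004 in 2D culture and 110, 106 and 102 in the tumours. The other 6 genes together gave 441, 491 and 488 in the bioink, 56, 29 and 33 in 2D culture and 46, 48 and 45 in the tumours. Apart from Bgn, the summed signal of 2D culture and tumours therefore overlapped, and the 4 genes Fmod, Ogn, Aspn and Prelp together gave 35 to 68 in the bioink, 25 to 50 in 2D culture and 33 to 43 in the tumours. Levels of different genes were compared per kb of exon, on lengths of 6.10 kb for Bgn, 5.84 kb for Dcn and 2.45 kb for Lum (GENCODE M21). On that scale Bgn took 81.8%, 80.6% and 81.4% of the signal of the 7 genes in the bioink, 89.9%, 94.4% and 92.8% in 2D culture and 41.4%, 34.1% and 41.7% in the tumours. Dcn took 10.5%, 13.4% and 12.2% in the bioink, against 0.38% or less in 2D culture and 0.68%, 0% and 8.41% in the tumours. The log2 ratio of Bgn to Dcn within a library, each count plus 1, was 3.02, 2.65 and 2.80 in the bioink, 8.01, 7.69 and 9.92 in 2D culture and 5.02, 5.88 and 2.27 in the tumours. The ratio was lower in the bioink than in every 2D library, and it overlapped the tumours, where Dcn stood at 0 to 11. Where Dcn is at 0, in 2D replicate 3 and tumour replicate 2, the pseudocount sets the ratio, and with a pseudocount of 10 the means were 2.79 in the bioink, 6.38 in 2D culture and 2.40 in the tumours.

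**Figure D3:**
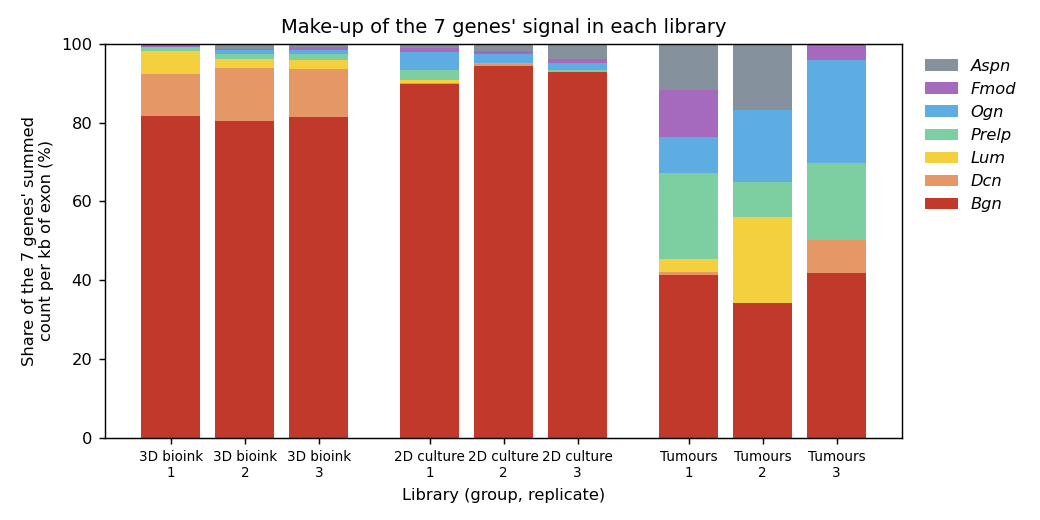
Share of each gene in the summed count per kb of exon of the 7 genes, for each library, as stacked bars that start at 0 and end at 100%. Bgn makes up most of the signal in both cultures, Dcn adds 10.5% to 13.4% in the bioink, and the tumour bars divide a sum of only 102 to 110 counts.

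All members but Bgn sit in gene clusters, and most of their neighbours were at or near 0. On chromosome X the nearest listed family gene to Bgn is Nyx. It lies 59994.3 kb away, with 312 protein-coding genes between. Dcn and Lum are followed on chromosome 10 by Kera and Epyc, the genes of the cornea member keratocan and the cartilage member epiphycan. The gaps are 34.2 and 30.4 kb with no protein-coding gene between, and Kera and Epyc were listed at 0 in all 9 libraries. On chromosome 13 Ecm2, Aspn, Omd and Ogn follow each other with gaps of 11.7, 14.9 and 15.2 kb, where Omd, for osteomodulin, was listed at 0 in all 9 libraries. Ecm2 stood at 0, 32 and 18 in the bioink, 5, 19 and 5 in 2D culture and 13, 2 and 73 in the tumours. Prelp and Optc, for opticin, lie 2.3 kb apart on chromosome 1, and Optc stood at 5 to 19 in all libraries. Fmod lies 115.8 kb from Prelp, with no protein-coding gene between them. The gene Cenpp runs across the chromosome 13 cluster on the other strand and shares 7 exonic bases with Aspn.

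Of 11 other genes of the family, 7 were tested. In the bioink against tumours 1 was higher and 1 lower (background 27.1% higher, 37.3% lower), with a median log2 of 0.48, against -0.11 for all genes tested. In 2D culture against tumours it was 1 and 1 (background 27.3% and 27%), with a median of 0.05, against 0.01, and -0.39 to 1.03 between alternatives. In the bioink against 2D culture 1 was higher and none lower (background 27% and 32.2%), with a median of 0.61, against -0.02. Podn, for podocan, a class V member, stood at 62, 139 and 110 in the bioink, 40, 54 and 38 in 2D culture and 18, 4 and 7 in the tumours. Like Bgn it was highest in the bioink and lowest in the tumours without overlap, with a log2 difference of 3.44 in the bioink (limma adjusted p = 0.000231) and 2.28 in 2D culture (limma adjusted p = 0.00385) from the tumours, while bioink and 2D culture were not called apart (log2 1.16, limma adjusted p = 0.0778). Chadl, for a chondroadherin-like collagen-binding protein, went the other way, at 740, 762 and 663 in the bioink, 430, 389 and 440 in 2D culture and 1609, 1639 and 1530 in the tumours. It fell by 1.14 in the bioink and by 1.92 in 2D culture against the tumours (log2, limma adjusted p = 1.42e-06 and 3.91e-08). Chadl has 5.26 kb of exon, of which 1023 bases are shared with L3mbtl2 on the other strand. Without strand the reads of those bases cannot be told apart. L3mbtl2 averaged 680 ± 63.6 in the bioink, 1305 ± 24.8 in 2D culture and 1030 ± 101 in the tumours (SD, n = 3 each).

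Collagens that these proteoglycans bind were mostly higher in the cultures. All 14 on the list were tested. Against tumours 10 were higher and 2 lower in the bioink (median log2 1.94, background 27.1% higher, 37.3% lower). In 2D culture 9 were higher and 2 lower than in the tumours (median 0.95, background 27.3% and 27%). Against 2D culture 9 were higher and 4 lower in the bioink (median 0.53, background 27% and 32.2%). Col1a2, a chain of type I collagen, averaged 5494 ± 258 in the bioink, 3413 ± 199 in 2D culture and 81.0 ± 28.6 in the tumours (SD, n = 3 each). Its log2 difference from the tumours was 6.12 in the bioink and 5.43 in 2D culture (limma adjusted p = 6.43e-09 and 1.02e-08). Col5a2, a chain of the type V collagen that sits inside type I fibrils, averaged 1581 ± 116 in the bioink, 686 ± 41.3 in 2D culture and 44.3 ± 8.02 in the tumours. Col3a1, of type III collagen, averaged 8537 ± 387 in the bioink, 2859 ± 26.7 in 2D culture and 12181 ± 433 in the tumours, and was lower than the tumours in both cultures (log2 -0.51 and -2.09, limma adjusted p = 9.74e-06 and 7.44e-10). The level of Bgn relative to type I collagen depended on the chain taken. For every 100 counts of Col1a1 there were 36.4, 32.4 and 38.1 of Bgn in the bioink, 19.4, 19.3 and 17.9 in 2D culture and 9.76, 8.59 and 8.72 in the tumours, with no overlap between the groups. For every 100 counts of Col1a2 there were 50.8, 44.1 and 49.9 of Bgn in the bioink, 31.6, 30.8 and 26.7 in 2D culture and 56.1, 87.9 and 90.5 in the tumours, so that on this chain the tumours were highest and 2D culture lowest.

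**Figure D4:**
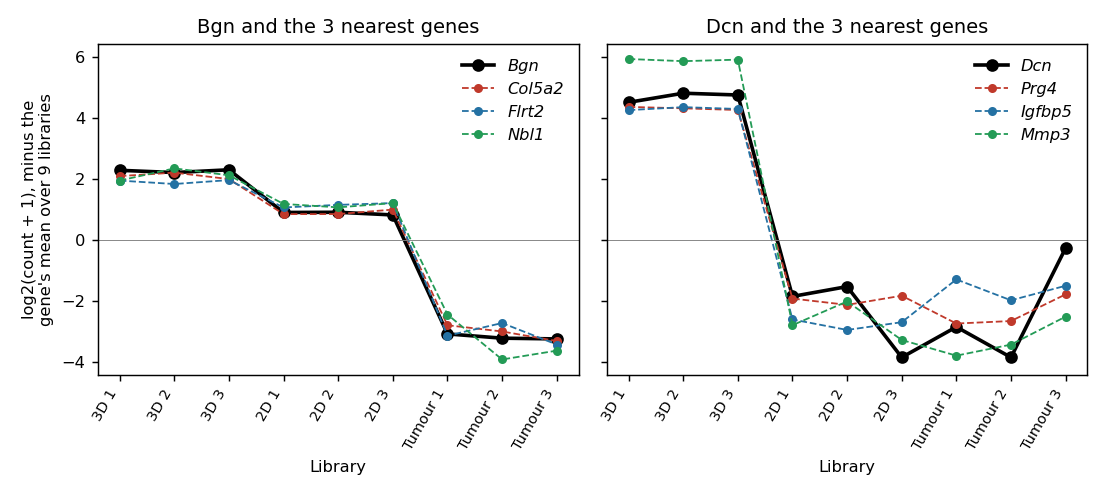
log2(count + 1) in the 9 libraries, minus each gene's own mean, for Bgn (left) and Dcn (right) and the 3 genes whose profiles lay closest. The Bgn group steps down from the bioink through 2D culture to the tumours, while the Dcn group is high in the 3 bioink libraries and low in the other 6.

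Among 10188 genes with a mean of at least 100, the profile closest to that of Bgn was Col5a2, with a root mean square difference of 0.18 log2 units over the 9 libraries. Flrt2, an adhesion protein with leucine-rich repeats, and Nbl1, a secreted BMP antagonist, followed at 0.32 and 0.40. The profiles closest to Dcn were Prg4 (lubricin, another secreted proteoglycan) at 0.98, Igfbp5 (an IGF binding protein) at 1.15 and Mmp3 (stromelysin, a metalloproteinase) at 1.16. Prg4 stood at 2340, 2267 and 2182 in the bioink, 29, 25 and 31 in 2D culture and 16, 17 and 32 in the tumours.

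Genes of the receptors and growth factors that these proteins bind moved in both directions. Of 16 listed, 15 were tested, of which 6 were higher and 7 lower in the bioink against tumours (background 27.1% higher, 37.3% lower). The median there was -0.06 and turned sign between alternatives (-0.26 to 0.27). In 2D culture 4 were higher and 8 lower than in the tumours (median -0.60, background 27.3% and 27%). In the bioink 8 were higher and 1 lower than in 2D culture (median 0.61, background 27% and 32.2%). Of the Toll-like receptors and co-receptor that biglycan engages, Cd14 (the co-receptor) and Tlr2 were lower in both cultures than in the tumours. Tlr4 was not. Cd14 averaged 292 ± 61.6 in the bioink, 23.0 ± 8.19 in 2D culture and 5071 ± 220 in the tumours (SD, n = 3 each), and fell by 4.13 in the bioink and by 7.79 in 2D culture against the tumours (log2, limma adjusted p = 4.72e-07 and 6.17e-09). Tlr2 averaged 155 ± 28.9 in the bioink, 30.7 ± 19.3 in 2D culture and 2050 ± 67.0 in the tumours. Tlr4 averaged 543 ± 165 in the bioink, 231 ± 15.7 in 2D culture and 285 ± 35.1 in the tumours. It was higher in the bioink than in the tumours without overlap (log2 0.89, limma adjusted p = 0.00293), and no difference was detected between 2D culture and tumours (log2 -0.30, 95% interval -0.74 to 0.14, limma adjusted p = 0.233). Egfr, a decorin receptor, rose to 189 ± 24.8 in the bioink and 227 ± 18.1 in 2D culture, against 21.0 ± 10.4 in the tumours (log2 3.25 and 3.52, limma adjusted p = 3.70e-05 and 2.57e-05). Microglia markers were lower in the same cultures, 9 of 10 in each against tumours (background 37.3% lower in the bioink, 27% in 2D culture). Fcrls, Aif1 and Cx3cr1 passed the minimum mean only through the tumours, so their calls are a description. The part of microglia in the values of Cd14 and Tlr2 was not tested.

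**Figure D5:**
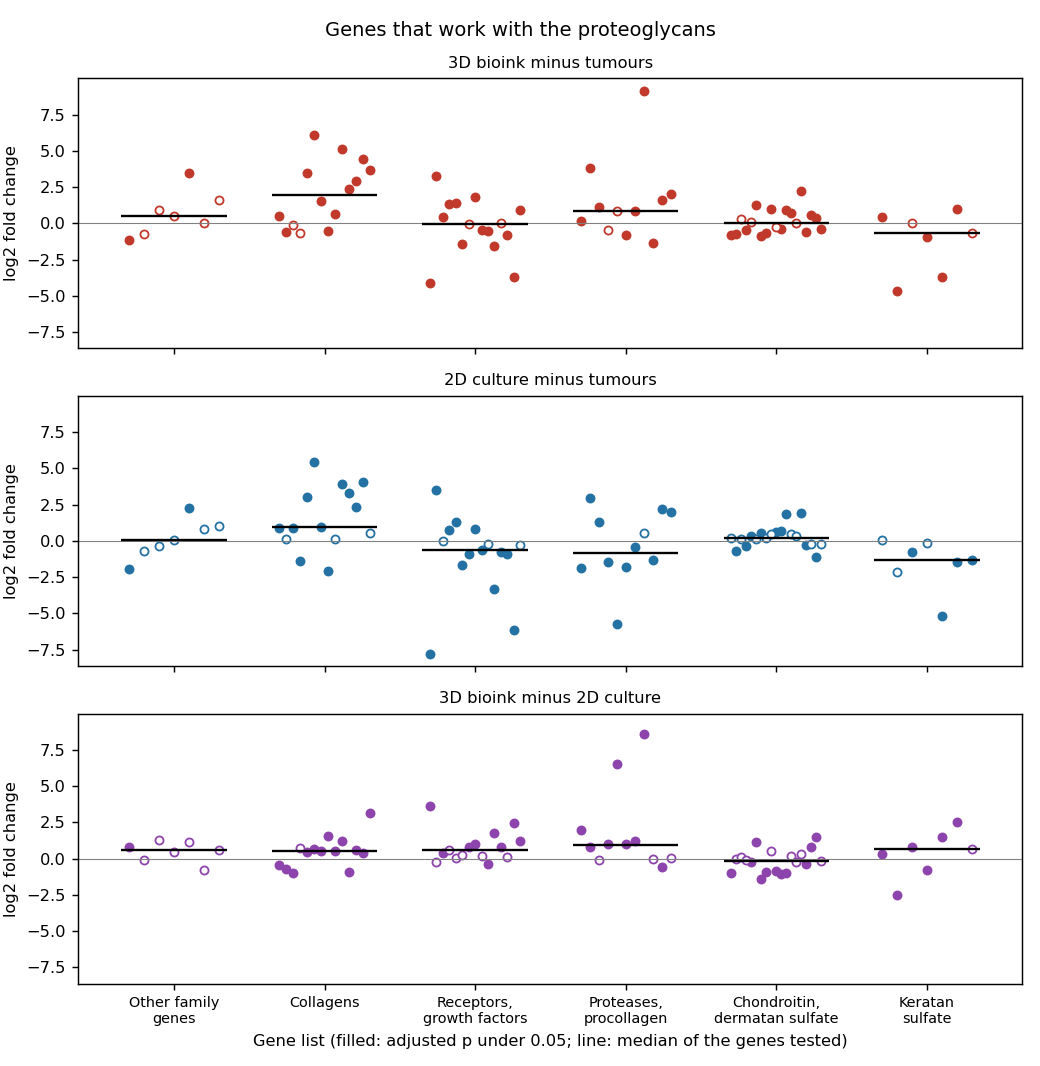
log2 fold change of each gene tested in 6 lists, in the 3 comparisons, with filled points past a limma adjusted p of 0.05 and a line at the list's median. Collagens lie mostly above 0 against tumours, while the receptor and the chondroitin and dermatan sulfate lists spread to either side of 0. Gzmb, listed at 0 in all culture libraries, is not drawn as a point.

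Proteases that cleave these proteins or process procollagen were tested for 12 of 16 genes. Against tumours 7 were higher and 3 lower in the bioink (median log2 0.84, background 27.1% higher, 37.3% lower). In 2D culture 4 were higher and 7 lower than in the tumours (median -0.86, background 27.3% and 27%). Against 2D culture 7 were higher and 1 lower in the bioink (median 0.91, background 27% and 32.2%). Without Gzmb, listed at 0 in all 6 culture libraries, the medians were 0.84 for bioink and -0.39 for 2D culture against tumours and 1.02 for bioink against 2D culture. Mmp3, which cleaves decorin, averaged 5823 ± 146 in the bioink, 15.0 ± 7.21 in 2D culture and 10.0 ± 5.29 in the tumours (SD, n = 3 each), so that it stood high in the libraries in which Dcn was high (log2 9.15 against tumours and 8.60 against 2D culture, limma adjusted p = 4.58e-08 and 1.02e-07). Mmp13, a collagenase, averaged 550 ± 33.9 in the bioink, 5.67 ± 3.51 in 2D culture and 310 ± 27.2 in the tumours. Gzmb, for granzyme B, a protease of cytotoxic lymphocytes that can cut decorin and biglycan, stood at 265, 224 and 250 in the tumours.

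Enzymes that build the sugar chains did not move in 1 direction. For chondroitin and dermatan sulfate 19 of 22 were tested. Against tumours 7 were higher and 8 lower in the bioink (background 27.1% higher, 37.3% lower), with a median log2 of 0.04, -0.13 to 0.30 between alternatives. In 2D culture 6 were higher and 4 lower than in the tumours (median 0.23, background 27.3% and 27%). Against 2D culture 3 were higher and 8 lower in the bioink (background 27% and 32.2%), with a median of -0.19, between -0.36 and 0.00 in the alternatives. Dsel, a dermatan sulfate epimerase-like gene, averaged 202 ± 30.8 in the bioink, 163 ± 8.51 in 2D culture and 48.0 ± 27.5 in the tumours. Chsy3, a chondroitin synthase, averaged 286 ± 28.7 in the bioink, 561 ± 76.3 in 2D culture and 151 ± 6.66 in the tumours. Chst12, which sulfates chondroitin, averaged 209 ± 44.3 in the bioink, 552 ± 49.7 in 2D culture and 378 ± 26.3 in the tumours, lower in the bioink than in 2D culture by a log2 difference of -1.41 (limma adjusted p = 3.79e-05). For keratan sulfate, carried by lumican and fibromodulin, 7 of 8 were tested. Against tumours 2 were higher and 3 lower in the bioink (median -0.70, background 27.1% higher, 37.3% lower). In 2D culture 0 were higher and 4 lower than in the tumours (median -1.33, background 27.3% and 27%). Against 2D culture 4 were higher and 2 lower in the bioink (median 0.63, background 27% and 32.2%). Chst1, a keratan sulfate sulfotransferase, averaged 17.7 ± 1.16 in the bioink, 5.67 ± 0.58 in 2D culture and 241 ± 10.4 in the tumours. Chst2, a related sulfotransferase, averaged 114 ± 22.5 in the bioink, 19.3 ± 3.51 in 2D culture and 55.3 ± 4.16 in the tumours. B3gnt7, which extends the keratan chain, stood at 0, 20 and 16 in the bioink, 30, 48 and 43 in 2D culture and 202, 149 and 181 in the tumours.

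Fibroblasts are not among the seeded cells in the labels and are a main source of these proteins in most tissues. The 15 fibroblast and leptomeningeal markers, a list without any of the 7 members, summed to 6549 to 6804 per library in the bioink, 5401 to 5700 in 2D culture and 1599 to 1868 in the tumours. Of 10 tested, 8 were higher and none lower in the bioink against tumours (median log2 1.70, background 27.1% higher, 37.3% lower). In 2D culture 8 were higher and 1 lower than in the tumours (median 1.14, background 27.3% and 27%). Against 2D culture 5 were higher and 1 lower in the bioink (median 0.38, background 27% and 32.2%). Pdgfra stood at 1105, 900 and 929 in the bioink, 415, 321 and 437 in 2D culture and 231, 216 and 217 in the tumours. The members of the list differed widely in level. Lox averaged 2327 ± 271 in the bioink and 2170 ± 16.2 in 2D culture and stood at 0, 9 and 17 in the tumours. Fbln1 averaged 454 ± 36.5 in the bioink, 119 ± 7.57 in 2D culture and 29.0 ± 11.5 in the tumours, and Crabp2 799 ± 72.5 in the bioink, 905 ± 30.7 in 2D culture and 163 ± 26.6 in the tumours. Tcf21 was listed at 0 in all 9 libraries, Dpt stood at 8 or less and Slc6a13 at 11 or less. The 12 pericyte and smooth muscle markers, for a seeded cell type, summed to 2881 to 3083 in the bioink, 1136 to 1159 in 2D culture and 4479 to 4947 in the tumours. Single markers differed in order. Rgs5 was highest in the bioink, at 124 to 140, against 7 to 10 in 2D culture and 39 to 55 in the tumours. Anpep was highest in the tumours, at 2646 to 3054, against 307 to 416 in the bioink and 66 to 82 in 2D culture. Against tumours 4 of 9 were higher and 3 lower in the bioink (background 27.1% higher, 37.3% lower). In 2D culture 2 were higher and 6 lower than in the tumours (background 27.3% and 27%). Against 2D culture 5 were higher and 1 lower in the bioink (background 27% and 32.2%). The 6 mesothelial markers summed to 56 to 192 in the bioink, 531 to 892 in 2D culture and 12 to 29 in the tumours. Of 3 tested, 2 (Msln and Krt19) were higher in each culture than in the tumours (background 27.1% higher in the bioink, 27.3% in 2D culture). Both were listed at 0 in the tumours and passed the minimum mean only through the cultures, so these calls are a description. Relative to 2D culture 1 was higher and 2 lower in the bioink (background 27% and 32.2%). The part of fibroblast, pericyte or mesothelial cells in the levels of Bgn, Dcn and Lum was not tested.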

How the data were processed

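The deposited values are scores, that is, counts already normalized and then rounded by the authors. The tools named in the submitters' processing notes are DESeq, DESeq2 1.24.0, RSEM and kallisto, without their role or order, and the build named is mm10. Rounded normalized counts do not suit a count model, so log2(value + 1) was tested for the 13773 symbols whose 9 libraries averaged 10 or more. All libraries entered 1 limma model (3.58.1, R 4.3.3; eBayes, trend on), with Benjamini-Hochberg adjustment over all genes tested and a threshold of 0.05, and was tested on simulated data. Fold changes on this scale understate the change of low genes. Gene positions and exon lengths come from GENCODE M21, and upstream sequences from RefSeq (GRCm38.p6). The members, gene lists and tests were chosen with earlier results of these data known. Named list genes are the largest changes past the threshold where the higher group averaged 100 or more, 2 per list plus the largest opposite one. Alternatives were other pseudocounts (0.5 and 10), filters, scalings, weights and fits, the replicate number as a block, and each library left out; other genes named were chosen after their values were seen. Python 3.11.15 was used for summaries and figures.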

Additional observations from a re-analysis of the deposited data

How the results depend on the processing

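Across 288 refits of single members' log2 fold changes, 272 kept the direction and the side of the threshold. The counts of all genes called stayed within 1.5 times in all 60 refits. Part of the agreement in direction was fixed in advance. Other filters, a fit without the trend and the replicate block cannot change the fold itself. Nor can leaving out libraries of the group not compared. The 10 sign changes were all in differences not called. Ogn in bioink against tumours was 0.33 with array weights and between -1.63 and 0.41 with a library left out, and in bioink against 2D culture 0.0893 with array weights and between -1.86 and 0.19. Ogn in 2D culture against tumours lay between -0.16 and 0.52 with a library left out. Dcn in 2D culture against tumours was 0.56 after quantile normalization, 0.25 with array weights and between -0.85 and 0.94 with a library left out. The members called in 2D culture against tumours numbered 1 to 2 with a library left out, the second being Prelp. In bioink against 2D culture the members called numbered 2 with a minimum mean of 50, because only 2 were then tested, and 3 to 4 with a library left out. Libraries with the same replicate number had correlations of residuals of -0.03 to 0.08, and those with different numbers -0.06 to 0.05. In bioink against tumours the same-number values (0.03, 0.05 and 0.08) lay above all others (-0.06 to 0.01). Such small correlations cannot settle whether the numbers pair libraries. With the replicate block, 3, 1 and 4 members were called, as without it, and 8795, 7357 and 8039 of all genes. With a pseudocount of 10, chosen after seeing the data for this ratio, the mean log2 ratio of Bgn to Dcn was 6.38 in 2D culture and 2.40 in tumours. Over all genes tested the median shifted from -0.11 to between 0.04 and 0.14 for bioink against tumours under the 3 other scalings, from 0.01 to between 0.02 and 0.18 for 2D culture against tumours, and from -0.02 to between -0.06 and 0.17 for bioink against 2D culture. The cause of these shifts was not tested. Replicates of Ogn, Fmod, Aspn and Prelp differed by up to their own level, which limits what can be said of them.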

Other observations

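The profiles closest to Lum over the 9 libraries, among genes with a mean of at least 100, were those of Ptgds, a prostaglandin D synthase abundant in leptomeninges, Ace, the angiotensin-converting enzyme, and Adgrg1, an adhesion receptor. Their root mean square differences from Lum were 1.006, 1.17 and 1.22 log2 units. Ptgds stood at 1913, 2017 and 2121 in the bioink, 81, 65 and 73 in 2D culture and 202, 281 and 166 in the tumours, so it was highest in the bioink, as Lum was, and lowest in 2D culture. The leptomeningeal transporter Slc6a13 stood at 5, 0 and 1 in the bioink, 6, 0 and 0 in 2D culture and 0, 11 and 0 in the tumours. The profiles closest to Prelp (Plscr1, Erich3 and Pot1b) lay at 0.53 to 0.55. Those closest to Ogn (Dcun1d2, Prkaa1 and Taf4) lay at 0.53 to 0.61, and all 3 were low in bioink replicate 1, where Dcun1d2 stood at 20, against 210 and 270 in the other bioink libraries.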
